A study of Mus musculus with 9 samples.

Results

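Fatty acid oxidation in the mitochondrion and the peroxisome was followed through 35 genes, chosen by name. They cover fatty acid activation, the carnitine shuttle, the steps of the oxidation spiral, transfer of its electrons, the peroxisomal route and 2 PPAR transcription factors. All 35 were among the 24063 gene symbols of the count tables, and all 35 were among the 14006 genes with enough reads to test. The cells were wild-type C2C12, a line of mouse myoblasts that fuse into muscle fibres when serum is withdrawn, differentiated in DMEM with 2% FBS and sampled at a time labelled day 3. Each of 3 groups had 3 RNA sequencing libraries. Control cells were kept in normal medium. In the 1C-MIM group the fibres were given 6 metabolites tied to the one-carbon network, which hands single carbon units between folate and methionine. In the scramble group they were given 6 metabolites unrelated to it, a control for supplementation itself. Their names and doses were not given in the sources used here. All libraries come from 1 cell line, and nothing in the labels says that they are separate cultures, so a p-value here reflects the spread between libraries, which may be technical.

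A fatty acid is first joined to coenzyme A and then passed through the inner mitochondrial membrane as a carnitine ester, a transfer that begins with the CPT1 enzymes. In the matrix, a cycle of dehydrogenation, hydration, a second dehydrogenation and thiolysis removes acetyl units, and the electrons of the first step leave through the electron transfer flavoprotein. Peroxisomes run a parallel route for very long and branched chains, in which the first step passes its electrons to oxygen. The PPAR factors, which bind DNA together with an RXR partner, switch on many of these genes in muscle and liver when fatty acids are plentiful.

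With 1 transcript per gene, the libraries held 28950809 to 33164223 counts. Of the 35 genes, 32 had at least 100 counts in every library, and the 3 below that were Cpt1b, Ehhadh and Ppara. Control replicate 1 stood apart, with 4367 of the 14006 tested genes more than 0.25 from the other controls on the log2 scale in either direction. Over 6 tested myofibre markers, its level minus that of the other controls had a median of 0.59 on the log2 scale. For the fatty acid oxidation genes that median was 0.02, and 4 of the 35 differed by more than 0.25, namely Ppara (1.77), Cpt1b (0.63), Acsl1 (0.54) and Crat (0.27). In every group replicate 1 differed more from replicates 2 and 3 than these did from each other. The chi-square per degree of freedom between libraries was 43.1 and 47.9 against 7.67 in control. It was 9.34 and 13.4 against 4.23 with 1C-MIM, and 15.4 and 15.8 against 3.30 with scramble. A cause shared by the libraries numbered 1 was not tested. Fibre markers were abundant in every library, and 2 of 6 rose and 1 fell with 1C-MIM against control (together 3553 to 6478 CPM in control, 5498 to 7034 with 1C-MIM and 4186 to 5787 with scramble; CPM, counts scaled to a common library size). The share of fibre markers called (50%) was close to that of all tested genes (47.3%). Over all tested genes, 22.9% were called higher with 1C-MIM in either comparison, and 24.3% and 23.2% lower against control and scramble. Adipocyte markers, which could accompany genes of fat metabolism, summed to at most 0.414 CPM over 7 genes in any library, with Cidec at 0 throughout. Markers of cycling cells were lower with 1C-MIM in 5 of 5 cases (555 to 695 CPM in sum, against 1054 to 1385 in control and 1137 to 1351 with scramble). Of 6 markers of undifferentiated myoblasts, 3 were higher and 1 lower (together 1011 to 1148 CPM with 1C-MIM, against 735 to 794 in control and 803 to 839.9 with scramble). The part of such shifts in cell makeup in the results below was not tested, and fewer cells of a type cannot be told apart from less RNA per cell.

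In control fibres the enzymes of the mitochondrial matrix were the most abundant of these transcripts per unit of length, on the scale of the deposited TPM. Etfa, a subunit of the electron transfer flavoprotein, led with 94.9 ± 3.93 TPM (SD, n = 3). It was followed by the thiolase Acaa2 (86.9 ± 4.04), the medium-chain dehydrogenase Acadm (83.3 ± 1.79), the trifunctional protein subunit Hadha (80.1 ± 3.29) and the hydratase Echs1 (78.8 ± 1.05). At the low end stood Ppara (0.0508 ± 0.0498 TPM), the peroxisomal bifunctional enzyme Ehhadh (0.444 ± 0.0619) and Cpt1b (1.07 ± 0.390). The plot of TPM by gene shows this order for all groups.

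**Figure D1:**
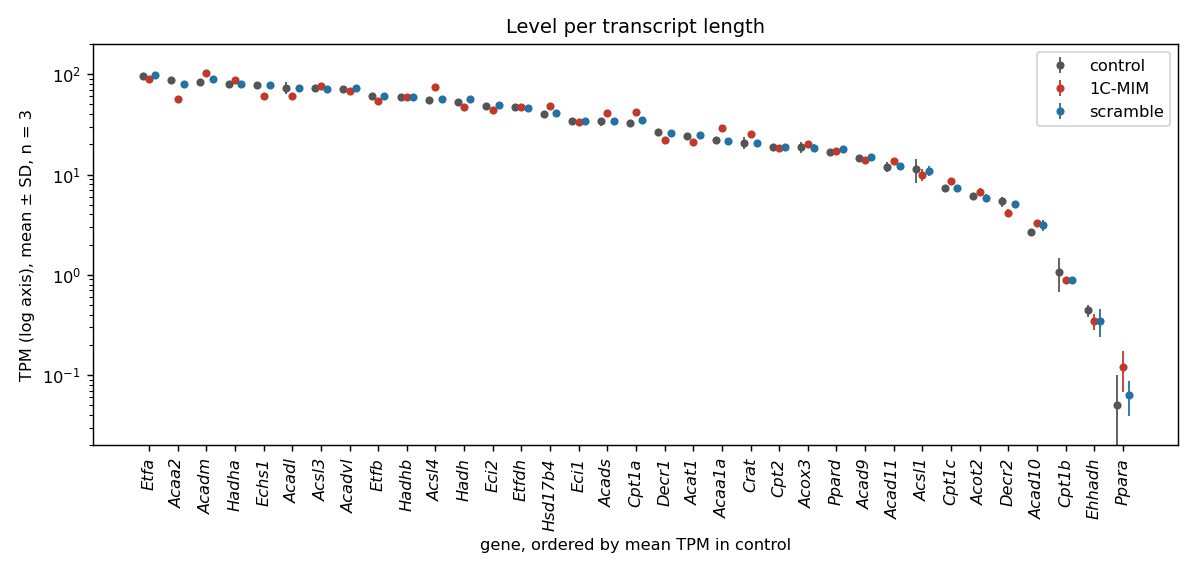
Deposited TPM (log axis) of the 35 fatty acid oxidation genes, ordered by their mean in control; points are means and bars SD over 3 libraries of control (grey), 1C-MIM (red) and scramble (blue). Most genes lie within an order of magnitude of Etfa, while Cpt1b, Ehhadh and Ppara lie far below; the lower bar of Ppara in control runs off the axis.

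Most of the Cpt1 transcript was Cpt1a, the isoform of liver and of many proliferating cells, and little was Cpt1b, the isoform of mature muscle. These are shares of transcript, and the share of each isoform in CPT1 activity was not measured. Of the summed TPM of the 3 Cpt1 genes, Cpt1a made up 79.5% ± 0.626 in control, 81.5% ± 0.719 with 1C-MIM and 80.9% ± 0.269 with scramble (SD, n = 3). Cpt1b made up 2.61% ± 0.950, 1.72% ± 0.120 and 2.06% ± 0.0632, and the neuronal isoform Cpt1c most of the rest. Cpt1b rested on 45 to 91 counts per library, and 94.8% of its exon bases are also annotated to the readthrough gene model Gm44502, so its level is uncertain.

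With 1C-MIM most differences in the fatty acid oxidation genes were small, and genes were called in both directions. Compared with control, 9 of the 35 rose and 8 fell (edgeR's quasi-likelihood test, Benjamini-Hochberg adjusted p below 0.05), with a median log2 fold change of -0.04. The background over all tested genes was 47.3% called, 22.9% higher and 24.3% lower, so the share of called members (48.6%) was close to that of genes in general. Scaled by library size alone, 7 rose and 11 fell, where 46.9% of all tested genes were called. The median absolute log2 fold change was 0.199 for the 35 genes and 0.234 for all tested genes. Only 1 member, Acaa2, was called with a difference of at least 1.5-fold, where 16.1% of all tested genes were. Compared with scramble, 8 rose and 10 fell, against backgrounds of 46% called, 22.9% higher and 23.2% lower. The libraries of 1C-MIM and control did not overlap for 10 higher and 13 lower members (55.5% of all tested genes did not, 27.3% higher and 28.2% lower). For 1C-MIM and scramble these were 10 and 14 members (59.5% of all genes, 29.7% higher and 29.9% lower). Both comparisons use the same 1C-MIM libraries and are therefore not independent. Among the 25 members grouped as mitochondrial, Cpt1c included, 6 rose and 7 fell against control (5 and 9 against scramble). Among the 5 peroxisomal members 2 rose and 1 fell in either comparison. Exons of 11 of the 35 genes overlap another annotated gene (GENCODE M21). Reads in a same-strand overlap, as in Cpt1b and Etfb, cannot be assigned to 1 gene by strand. In an opposite-strand overlap, as in Acadvl, they cannot be told apart where strand was not used in counting. The overlap covers under 15% of exon bases for all of the 11 genes but Acadvl, Cpt1b and Etfb.

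**Figure D2:**
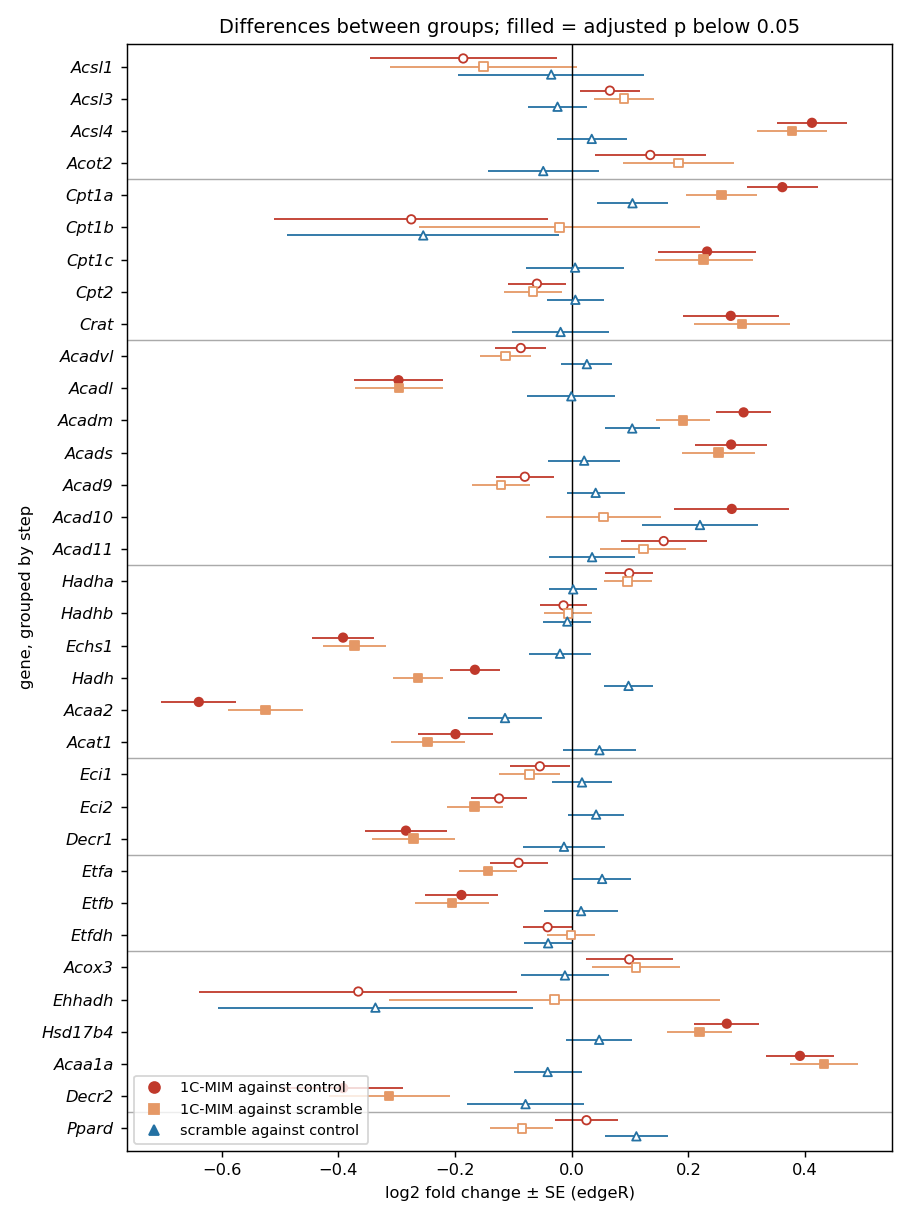
Log2 fold changes ± SE from edgeR for 34 genes in the 3 comparisons (circles, 1C-MIM against control; squares, 1C-MIM against scramble; triangles, scramble against control), with steps divided by grey lines and filled symbols for an adjusted p below 0.05. Called symbols lie to the right in the carnitine shuttle and to the left in the hydratase, dehydrogenase and thiolase steps, and no triangle is filled; Ppara, with 2 to 25 counts per library, is left out.

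The start sites of 28 of the 35 genes were matched by symbol in RefSeq's table for the mouse build GRCm38.p6 (the deposited counts use GRCm39), as windows from 250 bases before to 50 bases after the start. They were searched on both strands for AGGTCA, the half-site bound by nuclear receptors such as PPAR, RXR and the estrogen-related receptors. A pair of longer motifs, which contain the half-site, was searched too. One is 2 copies of AGGTCA in a row with 1 base between them, bound by PPAR with RXR, and the other is TCAAGGTCA, bound by the estrogen-related receptors. The next 3 windows are shown because they hold the half-site and belong to genes that moved in opposite directions, Cpt1a and Acadm up and Echs1 down. Capitals mark the half-site in either orientation, and each window is written 5′ to 3′ on the gene's strand.
Cpt1a (chr19:3323051-3323350, + strand): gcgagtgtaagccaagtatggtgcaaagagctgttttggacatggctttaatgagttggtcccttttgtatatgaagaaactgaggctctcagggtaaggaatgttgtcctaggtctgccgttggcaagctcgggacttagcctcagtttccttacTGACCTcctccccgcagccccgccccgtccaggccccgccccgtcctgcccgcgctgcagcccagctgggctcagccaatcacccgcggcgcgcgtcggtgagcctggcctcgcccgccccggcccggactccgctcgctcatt
Acadm (chr3:153944594-153944893, - strand): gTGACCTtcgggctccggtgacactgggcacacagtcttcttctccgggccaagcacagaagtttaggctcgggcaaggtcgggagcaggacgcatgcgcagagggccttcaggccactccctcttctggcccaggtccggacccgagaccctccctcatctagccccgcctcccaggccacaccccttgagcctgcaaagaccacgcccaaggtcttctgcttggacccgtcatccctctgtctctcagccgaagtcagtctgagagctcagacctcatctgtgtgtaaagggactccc
Echs1 (chr7:140116372-140116671, - strand): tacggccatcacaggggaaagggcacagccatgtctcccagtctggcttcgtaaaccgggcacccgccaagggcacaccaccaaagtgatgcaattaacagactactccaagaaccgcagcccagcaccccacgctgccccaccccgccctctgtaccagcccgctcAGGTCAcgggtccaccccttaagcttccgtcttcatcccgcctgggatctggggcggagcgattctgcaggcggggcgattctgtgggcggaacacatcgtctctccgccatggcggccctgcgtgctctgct
The half-site began 94 bases before the start in Cpt1a, 249 in Acadm and 83 in Echs1. It was also in the windows of Acadvl and Cpt1c, making 5 of 28, or 17.9%, against 16.0% of all 27025 windows. Neither longer motif was in any of the 28 windows (0.407% of all windows hold TCAAGGTCA and 0.044% the spaced repeat). A palindrome bound by nuclear respiratory factor 1, GCGCA followed by its reverse complement, was in 3 windows, those of Acad10, Etfdh and Ppara (10.7%, against 0.977% of all windows). The full consensus of that factor, searched after the palindrome had been counted, was in the Acad10 window alone (3.57%, against 1.31%), so the share depends on the form searched. The palindrome contains CpG pairs, and the 28 windows hold more of these than all windows do (median 17 against 7). Windows of like CpG content were not compared, so these shares do not show an excess particular to the pathway.

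Values after a gene's name are log2 fold changes ± SE unless a unit is given, with adjusted p from edgeR. Of the genes grouped here as fatty acid activation and release, Acsl4 was higher with 1C-MIM and the others were not called. Outside this group, the synthetases Acsl5 (-0.52 ± 0.06, adjusted p = 8.6e-05) and Acsl6 (-0.74 ± 0.23, adjusted p = 0.0266) were called lower against control. They were also called lower against scramble (-0.55 ± 0.06, adjusted p = 6.6e-05, and -0.65 ± 0.23, adjusted p = 0.0474). Without 1C-MIM replicate 2 or 3 the Acsl6 call was lost in both comparisons (-0.71 to -0.57, adjusted p = 0.0763 to 0.137). Acsl4, which activates arachidonic and other polyunsaturated acids, had 216, 207 and 208 CPM in the control libraries. It stood at 256, 290.1 and 295 CPM with 1C-MIM and at 215, 225 and 207 CPM with scramble. All 1C-MIM libraries lay above all others, and Acsl4 rose 1.33-fold against control (log2 fold change 0.41 ± 0.06, adjusted p = 0.00024) and 1.30-fold against scramble (0.38 ± 0.06, adjusted p = 0.00046). Acsl1, the main acyl-CoA synthetase of muscle and fat, was not called (39.8, 28.5 and 26.1 CPM in control, 31.8, 26.3 and 24.8 CPM with 1C-MIM and 34.2, 28.2 and 29.6 CPM with scramble; -0.19 ± 0.16, adjusted p = 0.37 against control). Its groups overlapped. Acsl3, a synthetase of lipid droplets, had 0.07 ± 0.05 and the mitochondrial thioesterase Acot2, which releases free fatty acids again, 0.13 ± 0.09; neither was called. Without the 3 libraries numbered 1, Acsl3 was called in both comparisons (0.11, adjusted p = 0.0246, and 0.10, adjusted p = 0.0405). Acsl1 was then called lower against scramble (-0.18, adjusted p = 0.0332). Acot2 has near-identical relatives, so its reads may be split with them.

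Of 5 genes grouped here as the carnitine shuttle, 3 rose and 0 fell in both comparisons, where 22.9% of all tested genes were called higher. The 3 were Cpt1a, Crat and Cpt1c. The Cpt1c call was lost in 11 of 21 alternatives against control and 12 of 21 against scramble. Cpt1a, which makes acylcarnitine at the outer mitochondrial membrane and sets the pace of entry, had 96.1, 101 and 104 CPM in the control libraries. It stood at 129, 136 and 122 CPM with 1C-MIM and at 101, 109 and 115 CPM with scramble. The lowest 1C-MIM library was above the highest control and scramble library. The difference was 1.3-fold against control (0.36 ± 0.06, adjusted p = 0.00062) and 1.19-fold against scramble (0.26 ± 0.06, adjusted p = 0.0052). Crat, which moves acetyl units between coenzyme A and carnitine, had 74.1, 63.7 and 59.6 CPM in control, 85.0, 76.9 and 76.7 CPM with 1C-MIM and 69.5, 64.4 and 61.0 CPM with scramble. The 1C-MIM libraries lay above all others, and Crat rose against control (0.27 ± 0.08, adjusted p = 0.0182) and scramble (0.29 ± 0.08, adjusted p = 0.0138). The Crat call was lost against control without 1C-MIM replicate 1, or control replicate 2 or 3 (log2 fold change 0.21 to 0.24, adjusted p = 0.0708 to 0.072). Against scramble it was lost without 1C-MIM replicate 1, or scramble replicate 3 (log2 fold change 0.24 to 0.25, adjusted p = 0.0554 to 0.0607). Cpt1c rose from 14.7 ± 1.2 to 17.3 ± 0.274 CPM (0.23 ± 0.08, adjusted p = 0.0403; 0.23 ± 0.08, adjusted p = 0.0464 against scramble). Its call against control was lost without all libraries numbered 1, 1C-MIM replicate 1, 2 or 3, control replicate 1 or 3, or scramble replicate 2 (log2 fold change 0.17 to 0.24, adjusted p = 0.0586 to 0.106), and under library-size scaling, no filter on low counts or upper-quartile scaling (log2 fold change 0.19 to 0.23, adjusted p = 0.0516 to 0.0853). Its call against scramble was lost without all libraries numbered 1, 1C-MIM replicate 1, 2 or 3, control replicate 3, or scramble replicate 1 or 2 (log2 fold change 0.15 to 0.24, adjusted p = 0.0595 to 0.156), and under DESeq2, library-size scaling, no filter on low counts or upper-quartile scaling (log2 fold change 0.19 to 0.23, adjusted p = 0.0533 to 0.0788). Cpt1b was not called (2.86, 1.39 and 2.38 CPM in control, 1.97, 1.80 and 1.72 CPM with 1C-MIM and 1.78, 1.84 and 1.93 CPM with scramble; -0.27 ± 0.23, adjusted p = 0.36), and without control replicate 2, its lowest control, it was called lower (-0.53, adjusted p = 0.0365). Cpt2, which rebuilds acyl-CoA on the matrix side, was not called (31.8 ± 0.801 and 30.5 ± 0.774 CPM; -0.06 ± 0.05, 95% interval -0.17 to 0.05).

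The acyl-CoA dehydrogenases, which open each turn of the spiral and differ in the chain length they take, went in both directions, with 3 of 7 higher and 1 lower against control and 2 higher and 1 lower against scramble. Over all tested genes, 22.9% were called higher in either comparison, and 24.3% and 23.2% lower. Acadm, for medium chains, had 122, 125 and 124 CPM in the control libraries. It stood at 145, 158 and 152 CPM with 1C-MIM and at 128, 134 and 137 CPM with scramble. It was higher in all 1C-MIM libraries than in any other, 1.23-fold against control (0.29 ± 0.05, adjusted p = 0.00046) and 1.14-fold against scramble (0.19 ± 0.05, adjusted p = 0.0067). Acads, for short chains, had 48.6, 43.4 and 44.6 CPM in control, 53.1, 54.0 and 58.0 CPM with 1C-MIM and 49, 44.8 and 44.8 CPM with scramble. It rose against control (0.27 ± 0.06, adjusted p = 0.0041) and scramble (0.25 ± 0.06, adjusted p = 0.0067), again without overlap. Acadl, for long chains, moved the other way, with 114, 97.6 and 94.4 CPM in the control libraries. It stood at 88.0, 80.4 and 80.8 CPM with 1C-MIM and at 109, 99.6 and 97.0 CPM with scramble. Every 1C-MIM library was below every other library, and Acadl fell against control (-0.30 ± 0.08, adjusted p = 0.0079) and against scramble (-0.30 ± 0.08, adjusted p = 0.0083). Acadvl, the membrane-bound enzyme for very long chains, was not called against control (-0.09 ± 0.04, adjusted p = 0.125) or scramble (-0.11 ± 0.04, adjusted p = 0.054), although its 1C-MIM libraries (106, 109 and 104 CPM) lay below all others (lowest 110.4 CPM). Against scramble it was called without control replicate 1 (-0.12, adjusted p = 0.0243) and without all libraries numbered 1 (-0.12, adjusted p = 0.0224). It was also called against scramble under a filter of 1 CPM in 3 libraries, a fit of the 2 compared groups alone, library-size scaling or upper-quartile scaling (log2 fold change -0.15 to -0.12, adjusted p = 0.02 to 0.0438), and against control under library-size scaling (log2 fold change -0.13, adjusted p = 0.0297). Of its exon bases, 45% overlap Dvl2 on the opposite strand. Acad9, which also helps assemble respiratory complex I, was not called (-0.08 ± 0.05 and -0.12 ± 0.05). Against scramble it was called lower under library-size scaling or upper-quartile scaling (log2 fold change -0.16 to -0.14, adjusted p = 0.0254 to 0.0407).

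The less studied relatives Acad10 and Acad11 were near the threshold. Acad10 rose against control from 6.99 ± 0.138 to 8.46 ± 0.486 CPM (0.27 ± 0.10, adjusted p = 0.0399) but was not called against scramble, where it stood at 8.14 ± 0.872 CPM (0.05 ± 0.10, adjusted p = 0.677). Its call against control was lost without 1C-MIM replicate 1, 2 or 3, control replicate 1, 2 or 3, or scramble replicate 2 (log2 fold change 0.23 to 0.30, adjusted p = 0.0526 to 0.134). With the full set of libraries it was lost under DESeq2, library-size scaling, no filter on low counts or upper-quartile scaling (log2 fold change 0.23 to 0.28, adjusted p = 0.0532 to 0.0813). Acad11 had 0.16 ± 0.07 against control (adjusted p = 0.102), and it was called without all libraries numbered 1, or control replicate 1 (log2 fold change 0.23 to 0.26, adjusted p = 0.0027 to 0.0122).

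**Figure D3:**
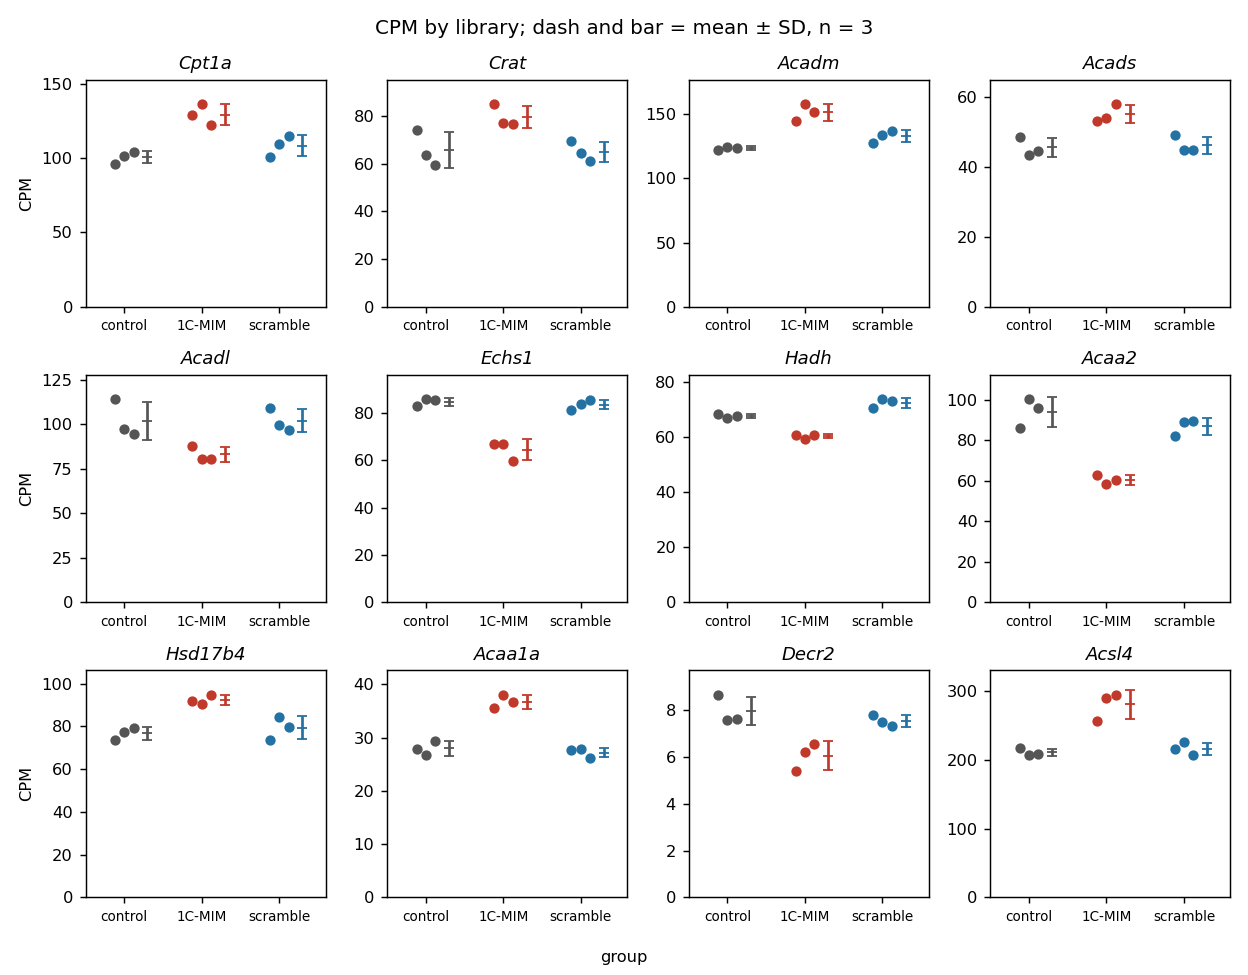
CPM of 12 fatty acid oxidation genes in each library of control (grey), 1C-MIM (red) and scramble (blue), with mean ± SD (n = 3) beside the points and axes from 0. In each panel the 1C-MIM libraries lie wholly above (Cpt1a, Crat, Acadm, Acads, Hsd17b4, Acaa1a, Acsl4) or wholly below (Acadl, Echs1, Hadh, Acaa2, Decr2) the other 6.

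Of 6 genes for hydration, the second dehydrogenation and thiolysis, 4 fell and 0 rose in both comparisons, with medians of -0.18 against control and -0.26 against scramble. Among all tested genes, 24.3% and 23.2% were called lower. Acaa2, the thiolase that releases acetyl-CoA from medium-length chains, had 85.9, 100.2 and 95.9 CPM in the control libraries. It stood at 62.7, 58.1 and 60.2 CPM with 1C-MIM and at 82.0, 89.2 and 89.4 CPM with scramble. No 1C-MIM library came near another group, and Acaa2 fell to 0.642 of the control level (-0.64 ± 0.06, adjusted p = 2.1e-05) and 0.695 of the scramble level (-0.52 ± 0.06, adjusted p = 8.7e-05). Echs1, the short-chain hydratase, had 82.8, 85.8 and 85.4 CPM in the control libraries. It stood at 67.0, 67.0 and 59.6 CPM with 1C-MIM and at 81.5, 83.7 and 85.3 CPM with scramble. Its fall was of like size in both comparisons (-0.39 ± 0.05, adjusted p = 0.00017, and -0.37 ± 0.05, adjusted p = 0.00025), with no overlap. Hadh, the dehydrogenase that follows Echs1, fell from 67.6 ± 0.747 to 60.2 ± 0.881 CPM (-0.17 ± 0.04, adjusted p = 0.0083), and its scramble level was 72.3 ± 1.74 CPM (-0.26 ± 0.04, adjusted p = 0.00055). Acat1, which splits or joins acetoacetyl-CoA and also serves ketone and isoleucine breakdown, fell from 58.3 ± 3.84 to 50.8 ± 2.15 CPM (-0.20 ± 0.06, adjusted p = 0.0237; -0.25 ± 0.06, adjusted p = 0.0085 against scramble). The Acat1 call against control was lost without 1C-MIM replicate 2 or 3, or control replicate 3 (log2 fold change -0.20 to -0.14, adjusted p = 0.0609 to 0.0998).

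The trifunctional protein, which carries out the same 3 reactions on long chains at the inner membrane, was not part of this fall. Its alpha subunit gene Hadha had 223, 223 and 217 CPM in the control libraries. It stood at 241, 233 and 238 CPM with 1C-MIM and at 225, 222 and 219 CPM with scramble. The 1C-MIM libraries were all higher, but the difference did not pass the test (0.10 ± 0.04, adjusted p = 0.07, and 0.10 ± 0.04, adjusted p = 0.0779). DESeq2 called it higher in both comparisons (log2 fold change 0.10, adjusted p = 0.0228, and log2 fold change 0.10, adjusted p = 0.0325), as did the fit without the 3 libraries numbered 1 (0.09 in both, adjusted p = 0.0353 and 0.0359). The beta subunit gene Hadhb was at 88.2 ± 1.67, 87.4 ± 0.566 and 87.8 ± 2.06 CPM in control, 1C-MIM and scramble, with overlapping libraries and a 95% interval of -0.10 to 0.08 against control. These genes lie head to head on chromosome 5, and their start windows share 228 bases. The window of Hadha, shown because it also covers most of the Hadhb window on the other strand and neither gene passed the test, is written on the Hadha strand, in lower case since it holds none of the motifs searched.
Hadha (chr5:30154931-30155230, - strand): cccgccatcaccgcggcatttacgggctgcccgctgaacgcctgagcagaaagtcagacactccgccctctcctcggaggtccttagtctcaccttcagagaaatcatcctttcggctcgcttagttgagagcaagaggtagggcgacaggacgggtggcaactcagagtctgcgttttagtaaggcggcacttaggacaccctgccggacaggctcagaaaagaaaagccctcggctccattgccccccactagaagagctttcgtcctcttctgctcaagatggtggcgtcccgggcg

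Enzymes for unsaturated chains and electron transfer were lower or not called. Decr1, the mitochondrial reductase that removes misplaced double bonds, stood at 51.2, 58.6 and 58.6 CPM in control, 43.9, 49.1 and 45.3 CPM with 1C-MIM and 52.3, 55.9 and 58.8 CPM with scramble. It fell without overlap (-0.28 ± 0.07, adjusted p = 0.0068; -0.27 ± 0.07, adjusted p = 0.0093 against scramble). The isomerase Eci2, found in mitochondria and peroxisomes, fell against scramble (-0.17 ± 0.05, adjusted p = 0.0152) and just missed the threshold against control (-0.12 ± 0.05, adjusted p = 0.0521). That call was lost without 1C-MIM replicate 1, or scramble replicate 2 (log2 fold change -0.15 to -0.14, adjusted p = 0.0518 to 0.0659). A call against control appeared without all libraries numbered 1, or control replicate 1 (log2 fold change -0.15 to -0.13, adjusted p = 0.0231 to 0.0246), and under a filter of 1 CPM in 3 libraries, library-size scaling or upper-quartile scaling (log2 fold change -0.17 to -0.13, adjusted p = 0.0118 to 0.0339). Eci1, the other isomerase, was not called (-0.05 ± 0.05 and -0.07 ± 0.05).

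Of the electron transfer flavoprotein, the beta subunit gene Etfb fell from 39.2 ± 3.26 to 34.4 ± 0.655 CPM (-0.19 ± 0.06, adjusted p = 0.0294; -0.21 ± 0.06, adjusted p = 0.0212 against scramble). That call was lost against control without 1C-MIM replicate 2 or 3, or control replicate 2 or 3 (log2 fold change -0.18 to -0.15, adjusted p = 0.0769 to 0.101), and under a fit of the 2 compared groups alone (log2 fold change -0.19, adjusted p = 0.0558). Compared with scramble, it was lost without 1C-MIM replicate 2 or 3, or scramble replicate 2 (log2 fold change -0.20 to -0.18, adjusted p = 0.0601 to 0.0777). Of the Etfb exon bases, 69.1% also belong to the gene model Gm45233 on the same strand. The alpha subunit gene Etfa had 98.7, 97.8 and 104 CPM in control, 97.2, 92.1 and 92.6 CPM with 1C-MIM and 99.7, 103 and 109 CPM with scramble, and it was called lower against scramble only (-0.14 ± 0.05, adjusted p = 0.0353; -0.09 ± 0.05, adjusted p = 0.156 against control). The difference between these comparisons is the scramble to control difference of Etfa, which was not called (0.05 ± 0.05). The Etfa call was lost without 1C-MIM replicate 2 or 3, or scramble replicate 2 or 3 (log2 fold change -0.15 to -0.10, adjusted p = 0.0701 to 0.145). Against control, Etfa was called without all libraries numbered 1 (-0.13, adjusted p = 0.0221) and under library-size scaling (log2 fold change -0.14, adjusted p = 0.0394). Etfdh, which passes the electrons on to ubiquinone, was not called, with 95% intervals of -0.13 to 0.05 and -0.09 to 0.09.

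**Figure D4:**
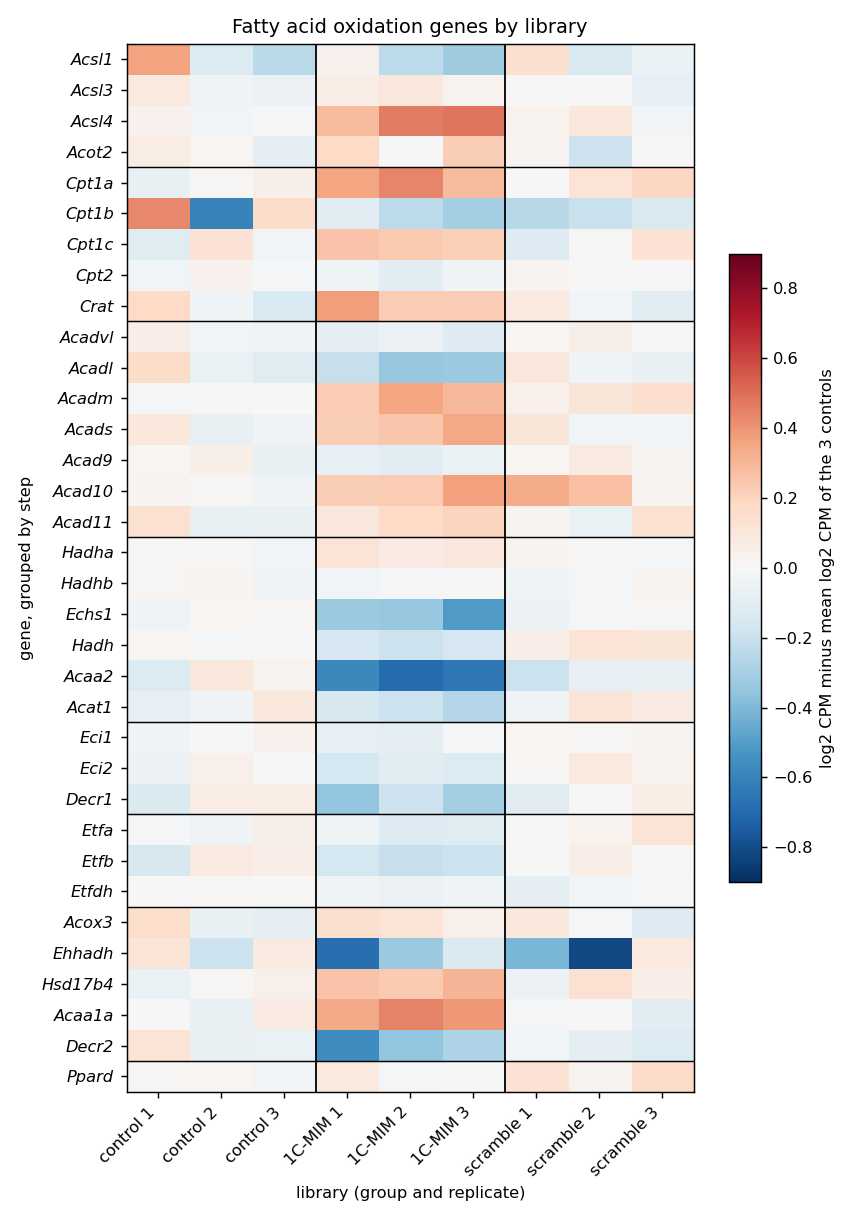
Log2 CPM of 34 fatty acid oxidation genes in each of the 9 libraries, minus the mean log2 CPM of the 3 controls (red higher, blue lower), with genes grouped by step and black lines between groups and steps; Ppara is left out for its low counts. The 1C-MIM columns are red for Acsl4, Cpt1a, Acadm, Acads and Acaa1a and blue for Acadl, Echs1, Acaa2 and Decr2, while control replicate 1 stands out in Acsl1 and Cpt1b.

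Of 5 peroxisomal genes Hsd17b4 and Acaa1a rose, and Decr2 fell. The background over all tested genes was 22.9% higher in either comparison, and 24.3% and 23.2% lower. Hsd17b4, the bifunctional enzyme that hydrates and dehydrogenates very long and branched chains, had 73.6, 77.3 and 79.3 CPM in the control libraries. It stood at 91.7, 90.4 and 94.8 CPM with 1C-MIM and at 73.8, 84.4 and 79.8 CPM with scramble. The 1C-MIM libraries were the highest, by 1.20-fold against control (0.27 ± 0.06, adjusted p = 0.0026) and 1.16-fold against scramble (0.22 ± 0.06, adjusted p = 0.0082). Acaa1a, the peroxisomal thiolase, had 27.8, 26.7 and 29.4 CPM in the control libraries. It stood at 35.5, 38.0 and 36.6 CPM with 1C-MIM and at 27.6, 27.8 and 26.1 CPM with scramble. It rose 1.31-fold (0.39 ± 0.06, adjusted p = 0.00026) and 1.35-fold (0.43 ± 0.06, adjusted p = 0.00015), opposite in sign to the mitochondrial thiolase Acaa2. Its near-identical copy Acaa1b stood at 1.3 ± 0.0790 CPM in control, so reads may be divided between the pair. Decr2, the peroxisomal reductase, fell, as its mitochondrial counterpart Decr1 did, with 8.65, 7.59 and 7.62 CPM in control, 5.39, 6.21 and 6.56 CPM with 1C-MIM and 7.80, 7.48 and 7.30 CPM with scramble (-0.39 ± 0.10, adjusted p = 0.009; -0.31 ± 0.10, adjusted p = 0.0288 against scramble). The Decr2 call was lost against control without all libraries numbered 1 (log2 fold change -0.25, adjusted p = 0.0707). In the comparison with scramble it was lost without all libraries numbered 1, 1C-MIM replicate 1 or 2, or scramble replicate 1, 2 or 3 (log2 fold change -0.33 to -0.21, adjusted p = 0.0509 to 0.139). Acox3, an oxidase of branched chains that opens the peroxisomal route, was not called (0.10 ± 0.07 and 0.11 ± 0.08). It was called without control replicate 1 (0.18, adjusted p = 0.0298, against control) and without all libraries numbered 1 (0.16, adjusted p = 0.0132, and 0.14, adjusted p = 0.0256). Ehhadh, a classic PPAR-alpha target in liver, had 16 to 34 counts per library and was not called (-0.37 ± 0.27, 95% interval -0.97 to 0.23). In sum over its 5 genes the peroxisomal route held 163 to 170.5 CPM in control, 192 to 194 with 1C-MIM and 163 to 173 with scramble. The 25 genes grouped as mitochondrial held 1647 to 1662, 1617 to 1643 and 1656 to 1695 CPM.

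The PPAR genes among the 35 were not called. Ppard, the form that drives oxidation in muscle, stood at 38.8, 39.0 and 37.8 CPM in control, 40.9, 38.1 and 38.6 CPM with 1C-MIM and 42.1, 39.3 and 43.4 CPM with scramble, with overlapping groups (0.03 ± 0.05, adjusted p = 0.726; 95% interval -0.09 to 0.14). Ppara had 17, 2 and 6 counts in control, 25, 19 and 10 with 1C-MIM and 14, 10 and 6 with scramble, which gave a fitted log2 fold change of 1.26 ± 0.59, adjusted p = 0.1, from few reads. Without control replicate 1, its highest control, Ppara was called higher against control (2.32, adjusted p = 0.0058), and also without all libraries numbered 1 (1.99, adjusted p = 0.0138).

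Of 9 other tested PPAR factors, partners and cofactors 6 rose and 0 fell with 1C-MIM against control (5 and 0 against scramble), where 22.9% of all tested genes were called higher in either comparison. The uncalled ones against control were Pparg (-0.18 ± 0.10), Esrra (0.07 ± 0.06) and Lpin1 (0.01 ± 0.10). The RXR genes Rxrb (42.9, 40.3 and 40.5 CPM in control, 57.5, 56.7 and 55.6 CPM with 1C-MIM and 41.7, 39.2 and 41.2 CPM with scramble; 0.46 ± 0.05, adjusted p = 3.3e-05) and Rxra (0.35 ± 0.05) rose. The coactivator Ppargc1a, a driver of mitochondrial genes, rose from 0.813 ± 0.237 to 2.16 ± 0.546 CPM (1.41 ± 0.29, adjusted p = 0.0021). Ppargc1b rose as well (0.50 ± 0.12; 0.43 ± 0.12 against scramble, a call lost without 1C-MIM replicate 1 (log2 fold change 0.32, adjusted p = 0.0505)). Against scramble, the corepressor Nrip1 was among the clearest rises (0.29 ± 0.07, adjusted p = 0.0059). Of 7 tested PPAR targets outside oxidation 5 fell and 0 rose in both comparisons, where 24.3% and 23.2% of all tested genes were called lower. Ucp3 (-1.21 ± 0.49) and Plin2 (-0.17 ± 0.08) were not called against control, and the median of the 7 was -0.63. Pdk4, the kinase that turns muscle from glucose to fat, had 40.4, 41.3 and 42.5 CPM in the control libraries. It stood at 21.6, 22.8 and 18.5 CPM with 1C-MIM and at 38.8, 41.5 and 42.5 CPM with scramble, a fall to 0.506 of the control level (-0.98 ± 0.08, adjusted p = 4.1e-06; -0.97 ± 0.08, adjusted p = 5.0e-06 against scramble). Cd36, which takes up fatty acids, went from 11.5 ± 3.02 to 5.45 ± 0.336 CPM (-1.08 ± 0.16, adjusted p = 0.00036). Fabp3, their carrier in the cytosol of muscle, fell by 0.63 ± 0.10, and Angptl4, a secreted inhibitor of lipoprotein lipase, by 0.56 ± 0.12, on the log2 scale. Ucp2, a carrier of the inner membrane, fell against scramble (-0.51 ± 0.12, adjusted p = 0.0078).

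**Figure D5:**
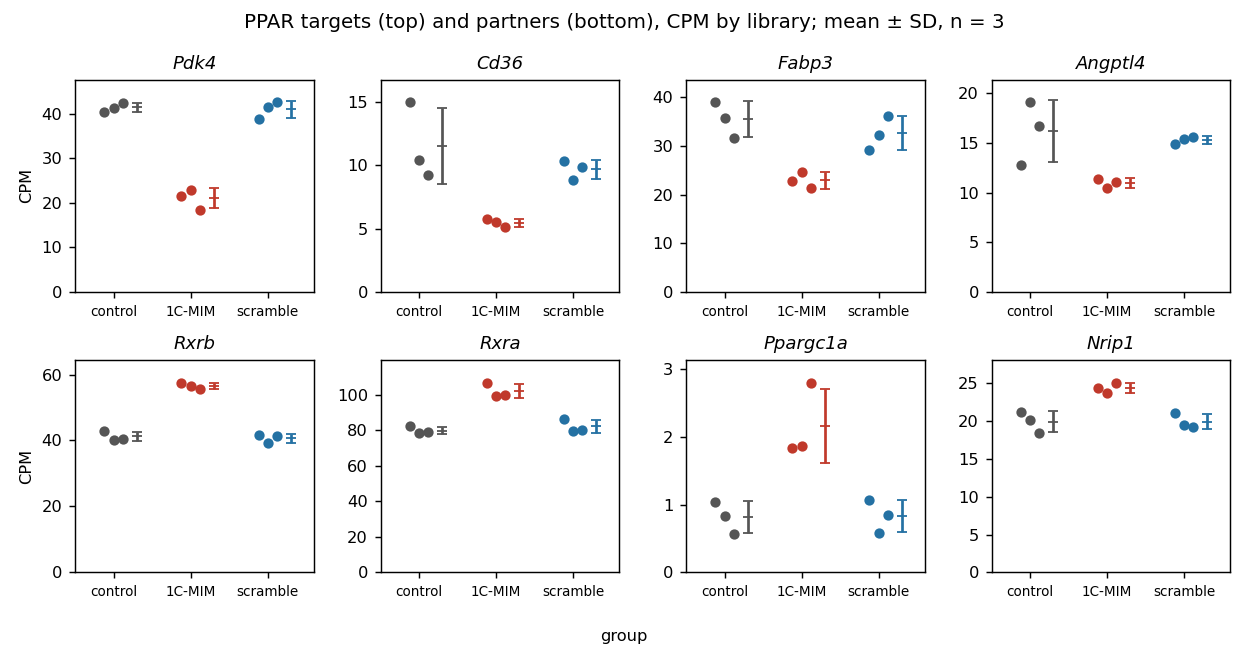
CPM in each library of control (grey), 1C-MIM (red) and scramble (blue) for 4 targets of PPAR factors (top) and 4 partners or cofactors (bottom), with mean ± SD (n = 3) and axes from 0. The 1C-MIM libraries lie below all others for the targets and above all others for the partners and cofactors.

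Genes of the pathway outside the 35 moved in both directions as well. Of 12 further mitochondrial genes 3 rose and 3 fell against control (2 and 3 against scramble). The background over all tested genes was 22.9% higher in either comparison, and 24.3% and 23.2% lower. A pair of opposing enzymes of malonyl-CoA, the inhibitor of CPT1, moved apart. Mlycd, which destroys it, rose from 15 ± 1.48 to 19.8 ± 0.630 CPM (0.40 ± 0.08, adjusted p = 0.0015; 0.56 ± 0.08, adjusted p = 0.0002 against scramble). Acacb, which makes it at the mitochondrion, fell from 4.48 ± 1.72 to 2.35 ± 0.119 CPM (-0.93 ± 0.27, adjusted p = 0.0151; -0.96 ± 0.27, adjusted p = 0.0132 against scramble). The Acacb call against scramble was lost without scramble replicate 1 (log2 fold change -0.75, adjusted p = 0.0523). Acsl5, a synthetase of the mitochondrial and reticular membranes, fell from 56.6 ± 3.71 to 39.4 ± 1.16 CPM (-0.52 ± 0.06, adjusted p = 8.6e-05). Ivd, of leucine breakdown, rose by 0.26 ± 0.06. Of 14 tested further peroxisomal genes 2 rose and 6 fell in both comparisons, with the same background of all tested genes. Amacr, the racemase that prepares branched chains, had 45.7, 42.5 and 41.9 CPM in the control libraries. It stood at 78.4, 82.4 and 91.2 CPM with 1C-MIM and at 48.2, 43.7 and 39.9 CPM with scramble, close to a doubling (1.94-fold, 0.96 ± 0.08, adjusted p = 6.0e-06). Hacl1, a lyase of alpha oxidation, fell from 11.4 ± 0.534 to 6.93 ± 0.395 CPM (-0.72 ± 0.09, adjusted p = 9.8e-05), with 58.2% of its exon bases shared with the same-strand gene model Gm49387. Phyh, which starts alpha oxidation, also fell (-0.31 ± 0.08).

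With the scramble metabolites these genes were measured near the control level. Between scramble and control 0 of the 35 were called, where 0% of all tested genes were, and 3 members had an unadjusted p below 0.05 (482 of all 14006 genes did); DESeq2 called 0 members as well. Those 3 were Acad10 (0.22 ± 0.10), Acadm (0.10 ± 0.05) and Hadh (0.10 ± 0.04), all higher with scramble and without overlap between the groups. Ppard was higher in each scramble library too (0.11 ± 0.05), and Etfdh lower (-0.04 ± 0.04), so that 5 of 35 genes did not overlap, 4 of them higher. Of all tested genes 9.09% did not overlap, 4.83% higher and 4.26% lower. For 32 of the 35 genes the 95% interval of the difference lay within 1.5-fold in either direction, and the exceptions were Cpt1b, Ehhadh and Ppara.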

How the data were processed

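Per the labels' protocols, 1.3 µg of total RNA per library went into a SMARTer mRNA-Seq kit. Each deposited file held, per transcript, counts, FPKM and TPM, which the authors made from their reads. Per the submitters' processing notes, bedtools 2.30.0, DESeq2 1.28.0, featureCounts, Picard 2.27.4, Salmon 1.5.2, SAMtools 1.15.1, STAR, StringTie 2.2.1, Subread 2.0.1 and Trim Galore 0.6.7 were used with GRCm39. The role of each tool and any use of strand were not given in the sources used here.

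Deposited counts entered the tests unchanged, with 1 transcript per symbol (the highest mean count over all 9 libraries; 33984 transcripts, 24063 symbols). Libraries held 47687009 to 54895918 counts over all transcripts. Genes with too few counts (filterByExpr, 10057 symbols) were not tested. edgeR 4.0.16 in R 4.3.3 (TMM, robust quasi-likelihood test, 9 libraries in 1 fit) gave log2 fold changes, with p adjusted by Benjamini-Hochberg across the 14006 tested genes. Calls needed an adjusted p below 0.05. The SE is the absolute unshrunk log2 fold change divided by the square root of F. The log2 fold changes printed are edgeR's slightly shrunk values, which can differ from the unshrunk ones at low counts. CPM use TMM-scaled library sizes, and TPM served for levels between genes; FPKM served only as an alternative for the Cpt1 shares. The fit was tested on simulated counts of 1C-MIM and control, with 200 of 12655 genes changed and 1 spread for all genes. It recovered 34% of 1.25-fold changes, 92% of 1.5-fold changes and 100% of 2-fold changes, and 6 of 169 calls were false. A gene that was not called may therefore still differ by a small amount. No 2 libraries agreed within sampling noise. Same-numbered control and scramble libraries deviated together (correlations 0.481, 0.214 and 0.168). The main fit took no libraries as pairs, and the number as a replicate block was tried as an alternative. Control replicate 3 correlated more with scramble replicate 2 (0.242), however. The replicate block changed no call among the 35 genes between scramble and control. The differences, SE, unadjusted p and intervals given for that comparison come from the fit without the block.

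The genes and lists were chosen with earlier results of these data known. All 35 genes could be named; of each other list, at most 4 called genes with the smallest p per comparison were. One gene that this rule names is not reported here. Pparg, Esrra, Lpin1, Ucp3 and Plin2, which were not called, were named after their values were seen. So was Acsl6, which was called. Alternatives were RLE, upper-quartile and plain library-size scaling, other filters, DESeq2 1.42.0, limma-voom (limma 3.58.1), fits to 6 libraries, a stricter threshold, counts averaged over transcripts, a replicate block and leaving libraries out.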

Additional observations from a re-analysis of the deposited data

How the results depend on the processing

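Over 21 alternatives per comparison the number of called genes among the 35 ran from 12 to 22 for 1C-MIM against control and from 12 to 21 for 1C-MIM against scramble, and it was 0 in every alternative for scramble against control. Over the same alternatives, the share of all tested genes called ran from 33.0% to 56.5% and from 31.6% to 55.2%. For scramble against control that share was at most 0.878%, under DESeq2. No gene called in the fit described above changed sign. Of its calls, 11 of 17 against control and 12 of 18 against scramble held in every alternative. Leaving out 1 library at a time gave 12 to 19 and 13 to 19 calls (38.8% to 50.9% and 37.2% to 52.9% of all tested genes). Leaving out the 3 libraries numbered 1 gave 22 (13 higher, 9 lower) and 21 (10 higher, 11 lower), where 56.5% and 55.2% of all tested genes were called. In each comparison with 1C-MIM, a same-numbered pair correlated below 0.1 (lowest 0.084 with control and 0.028 with scramble). All 9 same-numbered correlations were above 0, and in 11 of 18 checks (each library against another group) the own number correlated best. Whether the numbers mark pairs was not settled by these correlations. With the number as a replicate block, 20, 19 and 0 genes were called, where 52.8%, 52.2% and 0% of all tested genes were. The block added Eci2 (-0.12, adjusted p = 0.0282), Hadha (0.10, adjusted p = 0.0487) and Ppara (1.29, adjusted p = 0.0299) against control, and Acadvl (-0.11, adjusted p = 0.037) against scramble. Summed over all transcripts of each gene, Cpt1b made up 2.22%, 1.47% and 1.77% of Cpt1 TPM in control, 1C-MIM and scramble. Depth limits Ppara, Ehhadh and Cpt1b, whose counts were under 100 in every library, and overlapping gene models limit Cpt1b, Etfb and Acadvl.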

Other observations

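Genes that build the peroxisome moved in both directions, like the enzymes inside it. Of 17 tested genes (peroxins, which import proteins and form the organelle, and catalase, which destroys the hydrogen peroxide of its oxidases), 4 rose and 4 fell with 1C-MIM in either comparison. Among all tested genes, 22.9% were called higher in either comparison, and 24.3% and 23.2% lower. The share of the 17 genes called (47.1% in both comparisons) was therefore close to that of genes in general. The medians of the 17 genes were 0.03 against control and 0.09 against scramble on the log2 scale. Cat had 63.8, 66.2 and 67.0 CPM in the control libraries. It stood at 49.8, 53.7 and 49.1 CPM with 1C-MIM and at 69.7, 69.9 and 68.4 CPM with scramble, a difference of -0.37 ± 0.05, adjusted p = 0.00014 against control and -0.45 ± 0.05, adjusted p = 4.5e-05 against scramble. Pex6, a motor that recycles the import receptor, had 32.3, 32.4 and 33.9 CPM in control, 44.5, 48.1 and 45.5 CPM with 1C-MIM and 31.8, 33.1 and 34.7 CPM with scramble (0.49 ± 0.05, adjusted p = 4.4e-05). Pex19, the chaperone of peroxisomal membrane proteins, had 128, 124 and 119.7 CPM in control, 165, 160.0 and 162 CPM with 1C-MIM and 129, 133 and 126 CPM with scramble (0.39 ± 0.04, adjusted p = 4.4e-05). Pex7, the import receptor that brings in Acaa1a and Phyh, had 12.5, 13.2 and 12.8 CPM in control, 9.19, 10.3 and 10.5 CPM with 1C-MIM and 12.1, 12.6 and 12.4 CPM with scramble (-0.36 ± 0.08, adjusted p = 0.0027). In each of these 4 genes the 1C-MIM libraries did not overlap with the control libraries.

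The start windows of the fatty acid oxidation genes were rich in G and C. The median GC content was 61.8% over the 28 matched windows and 52.7% over all 27025 windows, with a median of 17 CpG pairs against 7. This is a description of the reference sequence; no difference between groups was compared with it.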
